A study of Mus musculus with 6 samples.

Results

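The 10 genes described here, Sod1, Sod2, Cat, Gpx1, Gpx3, Gpx4, Prdx1, Prdx2, Hmox1 and Nfe2l2, encode 9 antioxidant enzymes and the transcription factor that switches on many antioxidant genes. They were chosen by name as core genes of the defence against reactive oxygen, with earlier results of these data known. All 10 were found among the 37991 gene identifiers of the count table. The samples are labelled as bone endothelial cells (BECs) of the tibia, selected by endomucin, a surface protein of sinusoidal and venous endothelium. All donors were c57/Bl6 mice aged 12 weeks, with no treatment or altered allele in the labels, and the 2 groups were 3 female and 3 male libraries. The study asked whether BECs differ between the sexes. Its methods state that, of the RNA samples of each set, those of the best quality were carried forward to libraries, so the libraries are a selected subset.

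Aerobic cells release superoxide, chiefly from mitochondria and from NADPH oxidases. Superoxide dismutases turn it into hydrogen peroxide, and catalase, glutathione peroxidases and peroxiredoxins reduce the peroxide to water. Glutathione peroxidases draw electrons from glutathione and peroxiredoxins from thioredoxin, and both are recharged with NADPH. NRF2, the product of Nfe2l2, is held in the cytoplasm and degraded through KEAP1. When oxidants modify KEAP1, NRF2 enters the nucleus, pairs with a small MAF protein and binds the antioxidant response element, a site from which BACH1 is otherwise known to repress Hmox1. In bone marrow, heme oxygenase 1 is best known from macrophages, which break down the heme of aged red cells.

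Total counts lay between 47678806 and 58325745 per library, and levels are given as CPM, the count scaled to library size by the TMM method. A level of 3 counts, the smallest taken as detectable, was between 0.0477 and 0.0639 CPM. This limit covers counting error only, because PCR copies of a molecule were counted as separate reads. Xist was between 152 and 364 CPM in the female libraries and between 0.126 and 0.702 CPM in the male libraries, which matches the labelled sexes. The marker genes went against libraries made mainly of endothelial cells, so BEC is used below as the name the labels give. The 10 endothelial markers together took between 0.0146% and 0.0349% of the counts, with Cdh5, the endothelial cadherin, between 6.50 and 32.6 CPM and Emcn, which encodes endomucin, between 3.09 and 10.5 CPM. In contrast, 10 neutrophil markers took between 1.92% and 4.17% of the counts, 10 erythroid markers between 1.31% and 2.85% and 10 macrophage markers between 0.328% and 0.555%. None of these markers was at 0 in any library. The levels below are thus levels of a mixed sample, in which fewer cells of a type and less RNA per cell cannot be told apart. The labels do not say that each library came from a different animal, so the p-values measure the spread between these samples.

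All 10 genes were abundant enough to be tested among 19480 genes, and their levels spanned a wide range. Divided by the length of the canonical transcript in the GENCODE M39 annotation, the highest mean level was that of Gpx1, at 790 CPM per kb, next to Hmox1 at 768 CPM per kb. Their order differed between the sexes, with the Hmox1 level per kb at 1.15 to 1.40 times that of Gpx1 in the 3 female libraries and at 0.501 to 0.771 times in the 3 male libraries. Gpx4 followed at 294 CPM per kb, Prdx1 at 161 CPM per kb and Prdx2 at 113 CPM per kb. Cat was at 54.9 CPM per kb, Gpx3 at 45.6 CPM per kb and Sod1 at 44.3 CPM per kb. Nfe2l2, with 19.2 CPM per kb, and Sod2, with 8.54 CPM per kb, were the lowest. Over the 6 libraries the values of Gpx1 and Hmox1 overlapped, as did those of Prdx1 and Prdx2 and those of Cat, Gpx3 and Sod1, whereas all other neighbours in this order had ranges that did not overlap. The order depends on the transcript, since the coding transcripts of Gpx1 run from 746 to 1072 bases, those of Sod1 from 874 to 5315 bases and those of Sod2 from 451 to 6110 bases. With the shortest coding transcript of each gene, the mean of Gpx1 was 1135 CPM per kb, Sod1 was at 269 CPM per kb and Sod2 at 113 CPM per kb. In GENCODE M39 on GRCm39, Hmox1 (ENSMUSG00000005413) lies at chr8:75820241-75827217 on the plus strand and Nfe2l2 (ENSMUSG00000015839) at chr2:75504739-75534985 on the minus strand. Cat also lies on chromosome 2 and Prdx2 on chromosome 8, and the others are on chromosomes 4 (Prdx1), 9 (Gpx1), 10 (Gpx4), 11 (Gpx3), 16 (Sod1) and 17 (Sod2). Exons of 8 of the 10 genes share bases with genes on the opposite strand, the most in Sod1 (4217 bases with Scaf4), Gpx3 (2603 bases with Tnip1) and Gpx1 (1232 bases with the noncoding Gm57050). Whether reads were counted by strand is not given in the sources used here, so the counts of these pairs may be mixed, whereas Hmox1 has no such neighbour.

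**Figure D1:**
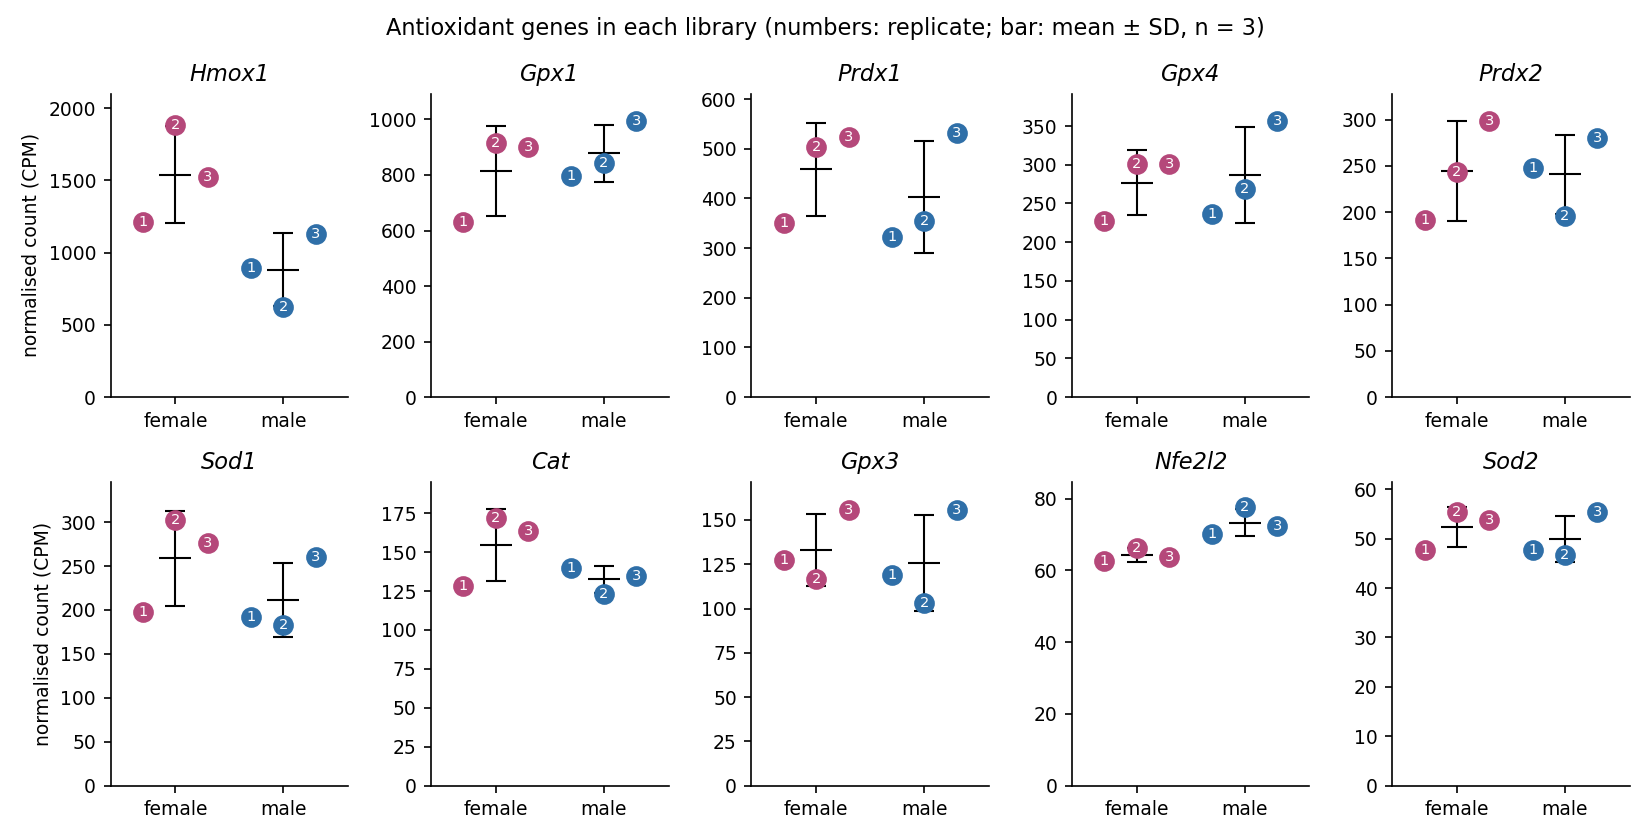
Normalised count (CPM, linear axis from 0) of each gene in the 3 female and 3 male libraries, with the mean ± SD of each sex as bars and the replicate number in each point. The female points of Hmox1 lie above all male points, at 1215 CPM or more against 1127 CPM or less, the points of Nfe2l2 do not overlap in the opposite direction, and the other 8 genes overlap between the sexes.

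The comparison of male with female libraries asked which of these genes differed between the sexes at 12 weeks. With the quasi-likelihood test of edgeR and Benjamini-Hochberg adjustment over all 19480 genes, 0 of the 10 genes passed an adjusted p of 0.05, a threshold that 8 genes, or 0.0411%, passed in all. At an unadjusted p under 0.05, 1 of the 10 was lower in males, beside 4.76% of all genes, and 0 of the 10 were higher in males, beside 5.03% of all genes. DESeq2's Wald test called 1 of the 10, lower in males, beside 2.08% of all genes. That gene was Hmox1 under both tools. In 1 gene every male library lay below every female library, beside 7.29% of all genes, and in 1 gene every male library lay above, beside 7.25% of all genes. The estimates were above 0 in 3 genes and below 0 in 7, with a median of -0.07 on the log2 scale beside -0.001 over all genes tested.

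**Figure D2:**
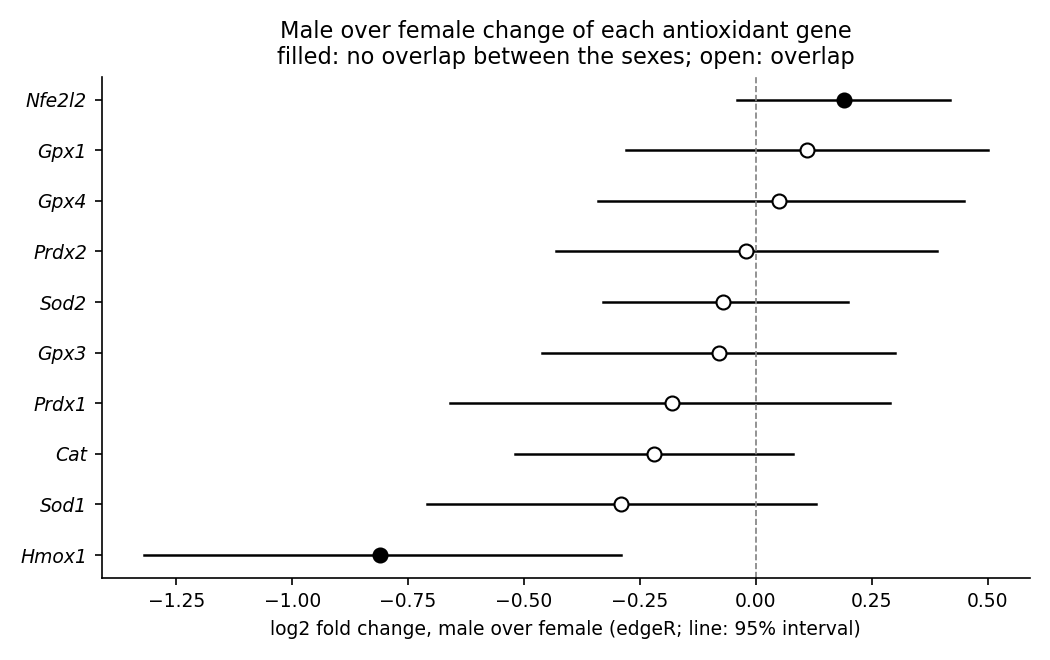
Log2 fold change of male over female with its 95% interval for each gene, from edgeR's quasi-likelihood fit. Filled points mark genes whose libraries do not overlap between the sexes. Only the interval of Hmox1, from -1.32 to -0.29, stays on one side of 0.

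Nfe2l2, which encodes NRF2, was the steadiest of the 10 genes within each sex. It was at 62.7, 66.3 and 63.7 CPM in female replicates 1, 2 and 3, and at 70.1, 77.6 and 72.3 CPM in male replicates 1, 2 and 3. Every male library was above every female library, with the highest value in male replicate 2. The means were 64.3 ± 1.86 CPM (SD, n = 3) in females and 73.4 ± 3.87 CPM (SD, n = 3) in males. The log2 fold change was 0.19 (SE 0.105), with a 95% interval from -0.04 to 0.42, and it did not pass the test (edgeR adjusted p = 0.596). The interval thus allows from 0.972 to 1.34 times the female level.

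Keap1, the gene of the protein that marks NRF2 for degradation, lay the other way. It was at 61.8, 73.2 and 64.5 CPM in females and at 54.8, 54.6 and 54.9 CPM in males, with no overlap, and was not called (log2 fold change -0.28, SE 0.110, edgeR adjusted p = 0.441). The ratio of Nfe2l2 to Keap1 counts was 1.02, 0.906 and 0.989 in the female libraries and 1.28, 1.42 and 1.32 in the male libraries. No male ratio reached down to the female range, and the exact two-sided permutation test gave p = 0.10, the smallest value that 3 against 3 libraries allow. This pair was chosen after its values were seen. Bach1, the repressor of Hmox1, and Mafg, a small MAF partner of NRF2, were also picked after their values were seen. Bach1 was between 43.8 and 48.7 CPM in females and between 51.6 and 59.6 CPM in males, at a log2 fold change of 0.28 (SE 0.111, edgeR adjusted p = 0.450). Mafg was between 54.8 and 55.9 CPM in females and between 65.5 and 76.6 CPM in males, at a log2 fold change of 0.36 (SE 0.108, edgeR adjusted p = 0.308). Neither gene overlapped between the sexes and neither was called. The other small MAF genes overlapped, Mafk at a log2 fold change of 0.15 (edgeR adjusted p = 0.740) and Maff at a log2 fold change of -0.33 (edgeR adjusted p = 0.776).

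The antioxidant response element links these regulators to the enzymes, so the promoters of the 10 genes were searched for its core letters TGACNNNGC on both strands, in the 250 bases before the transcription start. RefSeq promoters on GRCm38.p6 were at hand for 9 of the 10 genes, in 12 windows, and none for Hmox1. The core was found before Nfe2l2, Prdx1 and Sod1, and in 10.2% of the 32851 promoter windows of all genes. The 3 windows are shown 5′ to 3′ on the strand of the gene with the match in capitals, because they are the members in which NRF2's recognition letters lie close to the start. The Nfe2l2 window is chr2:75704664-75704913 on the minus strand, the Prdx1 window chr4:116685349-116685598 on the plus strand and the Sod1 window chr16:90220512-90220761 on the plus strand.
Nfe2l2: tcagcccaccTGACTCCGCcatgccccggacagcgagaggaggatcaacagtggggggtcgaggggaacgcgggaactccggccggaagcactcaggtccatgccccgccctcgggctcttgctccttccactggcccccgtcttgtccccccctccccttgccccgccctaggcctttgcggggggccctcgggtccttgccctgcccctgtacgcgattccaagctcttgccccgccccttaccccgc
Prdx1: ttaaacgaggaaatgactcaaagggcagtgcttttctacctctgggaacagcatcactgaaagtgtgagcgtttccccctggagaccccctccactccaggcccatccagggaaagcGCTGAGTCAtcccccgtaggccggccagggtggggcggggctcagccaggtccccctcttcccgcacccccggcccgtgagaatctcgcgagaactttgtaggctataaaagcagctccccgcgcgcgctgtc
Sod1: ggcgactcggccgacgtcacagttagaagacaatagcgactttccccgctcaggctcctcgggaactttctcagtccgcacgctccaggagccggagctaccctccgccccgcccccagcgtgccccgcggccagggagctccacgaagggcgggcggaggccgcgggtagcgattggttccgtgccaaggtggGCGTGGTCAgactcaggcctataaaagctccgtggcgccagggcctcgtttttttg
In Nfe2l2 the letters run from 240 to 232 bases before the start on the strand of the gene, in Prdx1 from 133 to 125 bases before it on the opposite strand and in Sod1 from 56 to 48 bases before it on the opposite strand. The Prdx1 match overlaps a match to TGANTCA, the core of AP-1 sites, which was found in 6.75% of all windows and in no other of the 9 genes. Such a match is a description of the letters, not of binding.

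Hmox1, which encodes the inducible heme oxygenase that splits heme into biliverdin, carbon monoxide and iron, was the member that varied most. It held 38.2%, 41.3% and 35.8% of their summed CPM in female replicates 1, 2 and 3 and 29.2%, 22.1% and 28.4% in male replicates 1, 2 and 3. Hmox1 was at 1215, 1883 and 1523 CPM in females and at 894, 622 and 1127 CPM in males. Every female library was above every male library, with the gap between female replicate 1 and male replicate 3 the narrowest. The means were 1540 ± 335 CPM (SD, n = 3) in females and 881 ± 253 CPM (SD, n = 3) in males. The male level was 0.572 times the female level, with a 95% interval from 0.400 to 0.819.

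The log2 fold change of Hmox1 was -0.81 (SE 0.233), at an unadjusted p of 0.00599 in edgeR and an adjusted p of 0.284. DESeq2 gave a log2 fold change of -0.80 and an adjusted p of 0.0178. Over all the alternatives run, the adjusted p lay between 0.0178 and 0.943 and the log2 fold change between -1.02, without male replicate 3, and -0.61, without male replicate 2. Only the DESeq2 test called the gene. Hmox2, which encodes the constitutive heme oxygenase, was at 77.0, 99.6 and 85.8 CPM in females and at 72.3, 76.7 and 98.9 CPM in males, at a log2 fold change of -0.08 (edgeR adjusted p = 0.893). The ratio of Hmox1 to Hmox2 counts was 15.8 to 18.9 in females and 8.11 to 12.4 in males, without overlap (exact two-sided permutation p = 0.10, the smallest possible). This pair too was chosen after its values were seen. The enzymes that take biliverdin to bilirubin did not separate the sexes. Blvra was between 62.1 and 92.8 CPM in females and between 55.3 and 89.4 CPM in males, and Blvrb between 150 and 205 CPM in females and between 150 and 200 CPM in males.

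Macrophage markers lay in the same direction as Hmox1. The summed level of the 10 markers was between 5044 and 5316 CPM in females and between 3277 and 4393 CPM in males. All 10 estimates were below 0, and 8 of the 10 did not overlap between the sexes, beside 7.29% of all genes. edgeR called 0 of the 10, with 10 at an unadjusted p under 0.05 beside 4.76% of all genes, and DESeq2 called 2, beside 2.08% of all genes. Mrc1, the mannose receptor of tissue macrophages, was at 544, 488 and 529 CPM in females and at 372, 272 and 363 CPM in males, a log2 fold change of -0.63 (edgeR adjusted p = 0.185). The ratio of Hmox1 to the summed macrophage markers was 0.236, 0.354 and 0.302 in females and 0.240, 0.190 and 0.257 in males. These ratios overlapped, with a mean log2 difference of -0.37 between males and females (exact two-sided permutation p = 0.30). The ratios of Hmox1 to the single markers Mrc1, C1qa and Adgre1, chosen after their values were seen, overlapped as well. The ratio to Mrc1 was 2.23 to 3.86 in females and 2.29 to 3.11 in males. Its mean log2 difference was -0.18 (exact two-sided permutation p = 0.70). The mean log2 difference was -0.39 for the ratio to C1qa and -0.38 for that to Adgre1 (exact two-sided permutation p = 0.20 for each). The summed endothelial markers were also lower, between 209 and 324 CPM in females and between 146 and 193 CPM in males. This separation rested on Pecam1, the most abundant of them, since without it the sums were 223, 116 and 221 CPM in females and 98.6, 69.0 and 125 CPM in males, which overlapped. Of the 10 markers, 3 did not overlap, beside 7.29% of all genes. All 10 of their estimates were below 0 with a median of -0.74, edgeR called 0 with 6 at an unadjusted p under 0.05, and DESeq2 called 3 (Cdh5, Tek and Eng). The ratio of Hmox1 to the summed endothelial markers was 3.75, 9.01 and 5.02 in females and 4.73, 4.28 and 5.83 in males, which overlapped (exact two-sided permutation p = 0.80). Stromal and platelet markers had lower means in males as well, but their sums overlapped. The 8 stromal markers summed to 2757, 1402 and 2875 CPM in females and to 1762, 1213 and 2314 CPM in males, with 7 estimates below 0 and a median of -0.37. The 6 megakaryocyte and platelet markers summed to 194, 50.4 and 114 CPM in females and to 79.2, 37.3 and 99.9 CPM in males, with all 6 estimates below 0 and a median of -0.62. edgeR and DESeq2 called none of these 14, and at an unadjusted p under 0.05 edgeR had 2 stromal and 0 platelet markers. Hmox1 was highest in female replicate 2, where the endothelial, stromal and platelet sums were the lowest of the females. The macrophage sum was the highest of the females in that library. Hmox1 was the lowest of the females in replicate 1 and the macrophage sum in replicate 3. Among the males, Hmox1 and the macrophage, endothelial, stromal and platelet sums were all lowest in replicate 2 and highest in replicate 3. The part of any of these cell types in the Hmox1 difference was not tested.

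**Figure D3:**
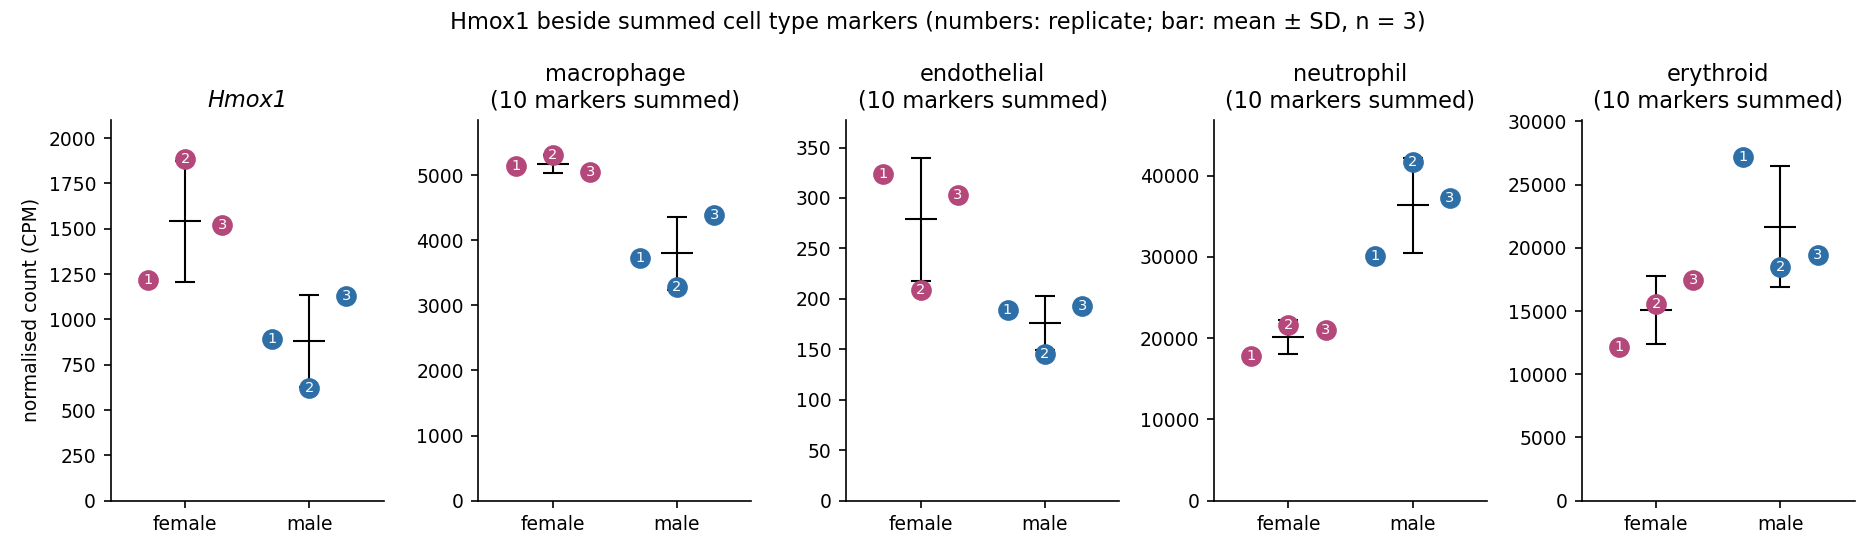
Normalised counts (CPM, linear axes from 0) of Hmox1 and of the summed markers of macrophages, endothelial cells, neutrophils and erythroid cells in each library, with the mean ± SD of each sex as bars and the replicate number in each point. Hmox1, the macrophage sum and the endothelial sum are lower in every male library than in every female library, the endothelial sum only with Pecam1 included, and the neutrophil and erythroid sums are higher.

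The 3 genes whose pattern over the 6 libraries was most like that of Hmox1, among 12257 genes with a mean of at least 5 CPM, were Aldh1l1, Pdzk1 and Klf15. The measure was the root mean square difference of log2 deviations from each gene's own mean, and it was 0.117 for Aldh1l1, 0.123 for Pdzk1 and 0.156 for Klf15. Aldh1l1, an enzyme of folate metabolism, was at 8.62, 10.6 and 9.35 CPM in females and at 5.11, 3.96 and 6.98 CPM in males. Pdzk1, a scaffold protein known from the control of the HDL receptor, was at 44.7, 66.9 and 52.5 CPM in females and at 33.2, 26.8 and 47.4 CPM in males. Klf15, a transcription factor induced by glucocorticoids, was at 5.36, 7.51 and 7.37 CPM in females and at 3.93, 2.60 and 6.41 CPM in males. All 3 were highest in female replicate 2 and lowest in male replicate 2, as follows from their choice by likeness to Hmox1. Since that choice also sets their difference between the sexes, it is given with no test.

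Both intracellular superoxide dismutases overlapped between the sexes. Sod1, the copper and zinc enzyme of the cytosol, was at 198, 302 and 276 CPM in females and at 192, 183 and 260 CPM in males. Female replicates 2 and 3 and male replicate 3 were high, and female replicate 1 and male replicates 1 and 2 were low. The log2 fold change was -0.29 (SE 0.187), with a 95% interval from -0.71 to 0.13 (edgeR adjusted p = 0.655). Sod2, the manganese enzyme of the mitochondrial matrix, varied far less. It was at 47.7, 55.3 and 53.9 CPM in females and at 47.6, 46.8 and 55.4 CPM in males, at a log2 fold change of -0.07 (SE 0.119, 95% interval from -0.33 to 0.20, edgeR adjusted p = 0.891). Sod3, the secreted dismutase, was scarce, at 5.65, 3.16 and 5.73 CPM in females and at 1.59, 1.46 and 3.77 CPM in males, with an overlap through male replicate 3 (log2 fold change -1.09, edgeR adjusted p = 0.402). Sod3 was named after its values were seen. Of the 3 genes of copper delivery, which Sod1 depends on, 0 were called by edgeR or DESeq2 and 0 had an unadjusted p under 0.05. Slc31a1, the copper importer, had the smallest p of them, at 22.4, 22.0 and 24.7 CPM in females and 16.9, 19.1 and 22.7 CPM in males (log2 fold change -0.24, edgeR adjusted p = 0.634).

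Cat, the gene of catalase, the heme enzyme of peroxisomes that splits hydrogen peroxide, was at 128, 172 and 163 CPM in females and at 140, 123 and 135 CPM in males. Female replicates 2 and 3 were above all male libraries, and female replicate 1 lay among them. The means were 155 ± 23.3 CPM (SD, n = 3) in females and 132 ± 8.51 CPM (SD, n = 3) in males. The log2 fold change of Cat was -0.22 (SE 0.136), with a 95% interval from -0.52 to 0.08 (edgeR adjusted p = 0.630).

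None of the 3 glutathione peroxidases separated the sexes. Gpx1, the main cytosolic form, was at 629, 915 and 900 CPM in females and at 797, 845 and 994 CPM in males. Female replicate 1 was the lowest library and male replicate 3 the highest, and the log2 fold change was 0.11 (SE 0.176, 95% interval from -0.28 to 0.50, edgeR adjusted p = 0.880). The Hmox1 to Gpx1 ratio of counts was 1.93, 2.06 and 1.69 in females and 1.12, 0.737 and 1.13 in males, a comparison chosen after its values were seen (exact two-sided permutation p = 0.10, the smallest possible). Gpx4, which reduces lipid hydroperoxides within membranes and restrains ferroptosis, was at 228, 301 and 301 CPM in females and at 236, 268 and 356 CPM in males. Its log2 fold change was 0.05 (SE 0.177), and the 95% interval from -0.34 to 0.45 allows from 0.789 to 1.36 times the female level (edgeR adjusted p = 0.951). Gpx3, the form secreted into plasma, was at 127, 117 and 156 CPM in females and at 119, 103 and 156 CPM in males, with replicate 3 the highest in both sexes. The log2 fold change of Gpx3 was -0.08 (SE 0.170, 95% interval from -0.46 to 0.30, edgeR adjusted p = 0.910).

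The 2 peroxiredoxins, abundant thiol peroxidases of the cytosol, also overlapped. Prdx1 was at 350, 502 and 523 CPM in females and at 323, 355 and 532 CPM in males (log2 fold change -0.18, SE 0.215, 95% interval from -0.66 to 0.29, edgeR adjusted p = 0.820). Its high libraries were female replicates 2 and 3 and male replicate 3, the same as those of Sod1. Prdx2, the peroxiredoxin best known from red cells, was at 191, 243 and 299 CPM in females and at 248, 195 and 280 CPM in males. The estimate for Prdx2 was the nearest to 0 of the 10 genes, at -0.02 (SE 0.185), and its 95% interval from -0.43 to 0.39 allows from 0.742 to 1.31 times the female level (edgeR adjusted p = 0.985). Erythroid markers were higher in each male library than in each female library, at 12170 to 17484 CPM summed in females and 18476 to 27161 CPM in males, while Prdx2 overlapped.

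**Figure D4:**
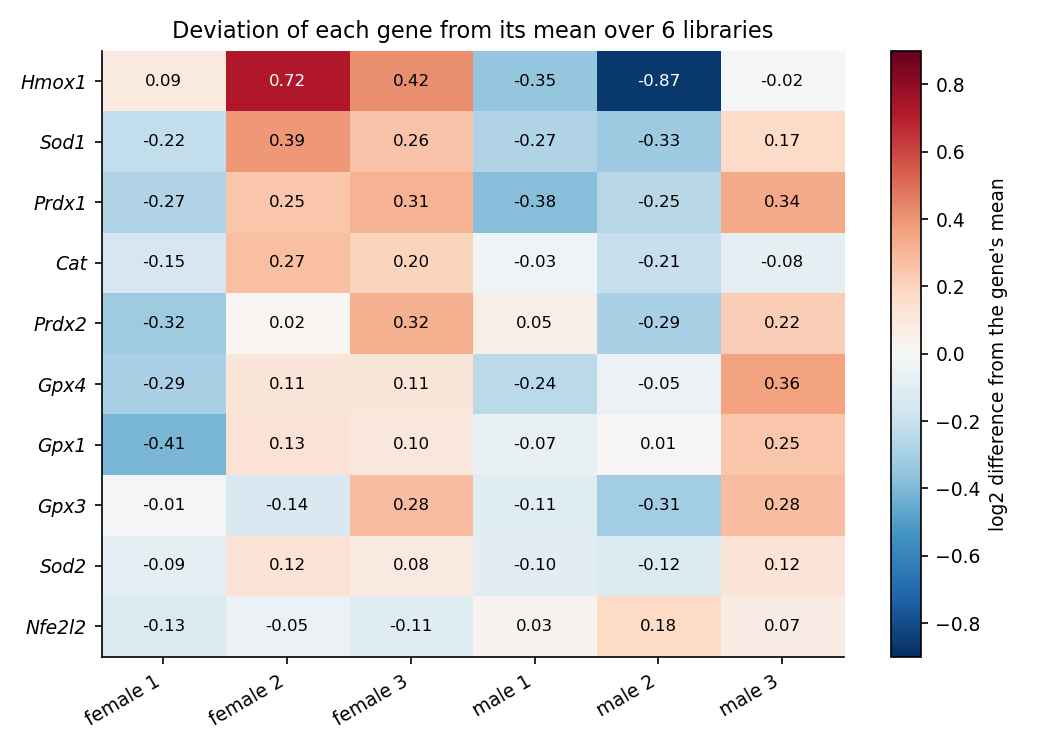
Log2 difference of each gene in each library from the gene's mean over the 6 libraries, with female libraries on the left and male libraries on the right. Female replicate 1 and male replicate 2 hold the lowest values of 9 genes, and Hmox1 has the widest range, from -0.87 to 0.72.

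In the 8 genes that overlapped, the range among the libraries of one sex was wider than the difference between the means of the sexes. Male replicate 2 was the lowest library for 5 of the 10 genes (Sod1, Sod2, Cat, Gpx3 and Hmox1) and female replicate 1 for 4 (Gpx1, Gpx4, Prdx2 and Nfe2l2). Male replicate 3 was the highest for 5 (Sod2, Gpx1, Gpx3, Gpx4 and Prdx1) and female replicate 2 for 3 (Sod1, Cat and Hmox1). The SD over the 6 libraries, on the log2 scale, was 0.564 for Hmox1, at percentile 97.5 of the genes with a mean of at least 5 CPM. For Nfe2l2 and Sod2 it was 0.116 each, at percentiles 16.2 and 16.0, and the other 7 genes lay between percentile 49.9 for Cat and 85.1 for Prdx1. The summed level of all 10 genes was 3177, 4557 and 4258 CPM in females and 3067, 2819 and 3969 CPM in males, which overlapped. The mean male sum differed from the mean female sum by -0.28 on the log2 scale with Hmox1 and by -0.03 without it.

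The remaining genes of the antioxidant pathways were read from 7 lists of 90 genes, of which 88 could be tested. These lists were drawn up with earlier results of these data known. edgeR called 0 of the 88. At an unadjusted p under 0.05, 21 of the 88 were higher in males, which is 23.9% beside 5.03% of all genes, and 9 were lower, which is 10.2% beside 4.76%. In 22 genes every male library was above every female library, which is 25.0% beside 7.25% of all genes, and in 7 every male library was below, which is 7.95% beside 7.29%. DESeq2 called 7 of the 87 it gave an adjusted p, or 8.05% beside 2.08% of all genes, all of them higher in males: Alox5, Alox5ap, Gsr, Mgst2, Msrb1, Ncf1 and Nfe2. Their DESeq2 adjusted p-values were between 0.000153 and 0.0408, their edgeR adjusted p-values between 0.0701 and 0.259, and those over all alternatives between 0.000153 and 0.943. The median log2 fold change of the 88 was -0.04, beside -0.001 over all genes.

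**Figure D5:**
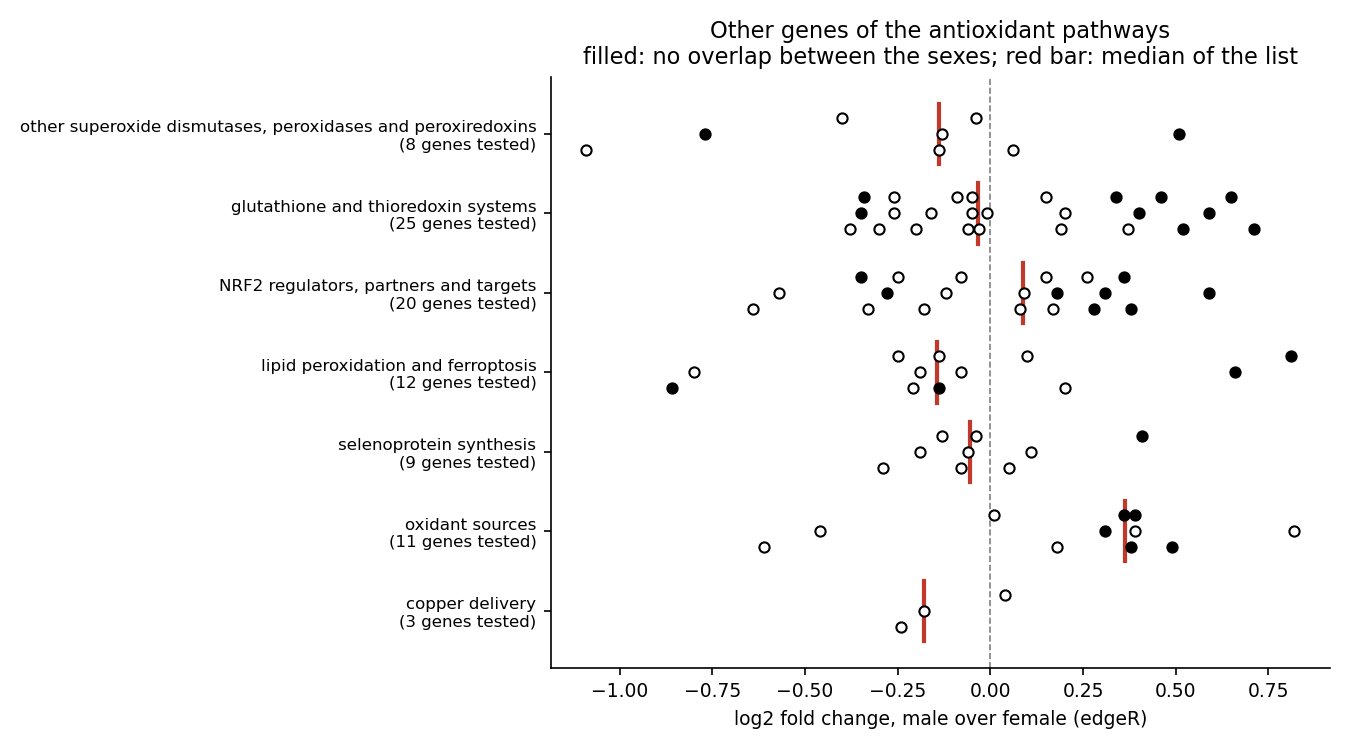
Log2 fold change of male over female (edgeR) for the 88 tested genes of the 7 pathway lists, 1 point a gene, with the median of each list as a red bar and genes without overlap between the sexes filled. The medians run from -0.18 for copper delivery to 0.36 for oxidant sources, and 0 of the genes were called by edgeR.

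Among the other dismutases, peroxidases and peroxiredoxins, 2 of 8 tested genes had estimates above 0 and 6 below, with a median of -0.14. Prdx5, a peroxiredoxin of mitochondria and peroxisomes, had the smallest p of the list. It was at 320, 429 and 408 CPM in females and at 462, 574 and 610 CPM in males, without overlap, and its log2 fold change was 0.51 (SE 0.162, edgeR adjusted p = 0.336). The ratio of Prdx5 to Prdx1 counts was 0.781 to 0.913 in females and 1.15 to 1.62 in males, a pair chosen after its values were seen. Of the other relatives at 5 CPM or more, Prdx6, Prdx3, Prdx4 and Gpx8 overlapped between the sexes: Prdx6 averaged 78.2 CPM over the 6 libraries, Prdx3 61.2 CPM, Prdx4 38.3 CPM and Gpx8 10.6 CPM. Gpx7, of the endoplasmic reticulum and named after its values were seen, was between 1.99 and 3.43 CPM in females and between 1.36 and 1.90 CPM in males, without overlap (edgeR adjusted p = 0.456). Gpx5 and Gpx6 were not tested, since Gpx6 had no counts and Gpx5 counts in female replicate 1 only.

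In the glutathione and thioredoxin systems, 7 of 25 genes (28.0%) lay higher in every male library, beside 7.25% of all genes, and 2 (8.0%) lower, beside 7.29%. Msrb1, a selenoprotein that repairs oxidised methionine, had the smallest p. It was at 143, 187 and 148 CPM in females and at 227, 282 and 271 CPM in males (log2 fold change 0.71, SE 0.146, edgeR adjusted p = 0.117). Gsr, the reductase that recharges glutathione, was at 221, 257 and 239 CPM in females and at 332, 434 and 356 CPM in males (log2 fold change 0.65, SE 0.141, edgeR adjusted p = 0.138). Mgst2, a membrane-bound glutathione transferase, was between 20.8 and 25.3 CPM in females and between 30.8 and 43.0 CPM in males. Gclc and Gclm, the subunits of the enzyme that limits glutathione synthesis, overlapped, with log2 fold changes of -0.05 and -0.06. Slc7a11, the cystine importer that feeds this synthesis, was at 10.3, 10.05 and 8.82 CPM in females and at 13.2, 14.9 and 13.9 CPM in males (log2 fold change 0.52, edgeR adjusted p = 0.298). Its partner chain Slc3a2 lay the other way, between 143 and 154 CPM in females and between 97.9 and 134 CPM in males (log2 fold change -0.35, edgeR adjusted p = 0.429). Srxn1, a NRF2 target that reactivates peroxiredoxins, was between 10.7 and 12.2 CPM in females and between 8.09 and 9.74 CPM in males (log2 fold change -0.34, edgeR adjusted p = 0.534). Gsr, Mgst2, Slc7a11, Slc3a2 and Srxn1 were picked after their values were seen.

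Of the 20 NRF2 regulators, partners and targets, 11 estimates were above 0 and 9 below, with a median of 0.09. Nfe2, the blood cell relative of NRF2, had the smallest p, at 81.5, 80.9 and 82.0 CPM in females and 111, 136 and 121 CPM in males. Its log2 fold change was 0.59 (SE 0.114, edgeR adjusted p = 0.0974). Nfe2l1, another relative, was between 142 and 165 CPM in females and between 100 and 138 CPM in males (log2 fold change -0.35, edgeR adjusted p = 0.440). Nqo1, the textbook NRF2 target, was scarce and overlapped, at 2.88, 4.14 and 5.50 CPM in females and 3.68, 2.07 and 2.66 CPM in males (edgeR adjusted p = 0.602).

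Lipid peroxidation and ferroptosis were represented by 12 genes, of which 4 had estimates above 0 and 8 below, with a median of -0.14. Alox5, the 5-lipoxygenase that starts leukotriene synthesis in myeloid cells, had the smallest p of all pathway genes. It was at 61.9, 72.5 and 68.4 CPM in females and at 105, 115 and 100 CPM in males. Its log2 fold change was 0.66 (SE 0.115, edgeR adjusted p = 0.0701). Alox5ap, the protein that activates this enzyme, was at 140, 179 and 153 CPM in females and at 239, 321 and 267 CPM in males (log2 fold change 0.81, SE 0.150, edgeR adjusted p = 0.0859). In 2 of the 12 every male library was above every female library, beside 7.25% of all genes, and in 2, Alox15 and Acsl4, every male library was below, beside 7.29%. Alox15, a lipoxygenase that oxidises membrane lipids, was scarce, at 2.42, 2.38 and 4.18 CPM in females and at 2.07, 1.46 and 1.39 CPM in males (log2 fold change -0.86, edgeR adjusted p = 0.424). Alox12, the platelet lipoxygenase, was at 19.4, 6.07 and 13.5 CPM in females and at 7.59, 6.11 and 8.66 CPM in males, which overlapped (log2 fold change -0.80, edgeR adjusted p = 0.493). The summed platelet markers given above were likewise highest in female replicate 1 and lowest in replicate 2 within each sex, and their part in the Alox12 levels was not tested. Both were named after their values were seen. Acsl4, which loads membranes with oxidisable fatty acids, was between 44.1 and 49.3 CPM in females and between 40.8 and 44.0 CPM in males (log2 fold change -0.14, edgeR adjusted p = 0.720). Aifm2, which encodes the suppressor of ferroptosis FSP1, averaged 5.41 CPM and overlapped.

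Among 9 genes of selenoprotein synthesis, on which the glutathione peroxidases depend, 1 (11.1%) lay higher in every male library, near the 7.25% of all genes. It was Sephs2, the selenophosphate synthetase, at 46.0, 59.2 and 52.0 CPM in females and at 66.3, 69.5 and 73.3 CPM in males (log2 fold change 0.41, SE 0.123, edgeR adjusted p = 0.299). Selenop, the plasma carrier of selenium, was at 1540, 1520 and 2003 CPM in females and at 1189, 1157 and 2099 CPM in males, which overlapped.

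Of the 11 oxidant sources, 9 estimates were above 0 and 5 genes (45.5%) lay higher in every male library, beside 7.25% of all genes, with a median of 0.36. Ncf1, the organising subunit of the phagocyte NADPH oxidase, was at 299, 357 and 315 CPM in females and at 453, 499 and 411 CPM in males. Its log2 fold change was 0.49 (SE 0.135, edgeR adjusted p = 0.259). Cybb, the catalytic subunit of this oxidase, was between 395 and 486 CPM in females and between 425 and 472 CPM in males, and overlapped. Nos3, the endothelial nitric oxide synthase, was between 0.870 and 1.75 CPM in females and between 0.548 and 1.46 CPM in males.

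Neutrophil markers were higher in males, the direction of the oxidant sources and of the 7 pathway genes called by DESeq2, whereas 5 of the 7 lists had medians below 0. Their summed level was between 17790 and 21669 CPM in females and between 30136 and 41721 CPM in males, with Mpo counted both as a marker and as an oxidant source. Of the 10 markers, 7 lay higher in every male library, beside 7.25% of all genes. edgeR called 0, with 6 at an unadjusted p under 0.05 beside 5.03% of all genes, and DESeq2 called 5, beside 2.08% of all genes. S100a9, the most abundant of them, was at 6921, 8231 and 7480 CPM in females and at 11758, 17506 and 15184 CPM in males, a log2 fold change of 0.97 (edgeR adjusted p = 0.115). Mpo, Elane and Prtn3, granule genes of immature neutrophils, overlapped between the sexes. Of the 10 estimates, 9 were above 0 and that of Mpo was below. Mpo averaged 276 CPM in females and 181 CPM in males (log2 fold change -0.61, edgeR adjusted p = 0.606). The part of neutrophil RNA in the differences of Alox5, Alox5ap, Gsr, Mgst2, Msrb1, Ncf1 and Nfe2 was not tested.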

How the data were processed

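RNA of samples labelled as BECs of mice aged 12 weeks was sequenced in 6 libraries, 3 female and 3 male. The authors deposited 1 table of raw read counts per gene for each library, with neither normalisation nor pooling. The submitters' processing notes name TopHat2 2.0.11, featureCounts, mm9 and NCBIM37, whereas the study's methods name STAR, featureCounts and GRCm39, and library kit, read length and instrument differ likewise. The annotation release and the strand setting of the counting are not given in the sources used here. Gene symbols and lengths were taken from GENCODE M39, which matched 31073 of the 37991 identifiers holding 96.2% of the counts. No 2 libraries agreed within sampling noise, the chi-square per gene being at least 33.3 over 15 pairs.

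Males were compared with females with edgeR 4.0.16 in R 4.3.3 (TMM, default low-count filter by sex, robust quasi-likelihood test, Benjamini-Hochberg adjustment over 19480 genes, threshold 0.05). Standard errors were derived from the fold change and the quasi-likelihood F. Alternatives were DESeq2 1.42.0 (Wald test, and its size factors within edgeR), total counts alone, no filter, at least 10 counts in every library, 7 genes over 1% of a library left out, no robust estimation, the replicate number as a block and each library left out. Deviations between libraries used log2(CPM + 0.5). The fit was tested on simulated data with known changes. Ratios were compared with exact permutation tests (scipy 1.17.1).

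The members, lists and markers were chosen with earlier results of these data known. The genes named are the 10 members, in each list the gene with the smallest p at a mean of at least 5 CPM, relatives of members at that level, the 3 genes nearest to the member with the smallest p, and those said in the text to have been chosen after their values were seen or called by DESeq2. Nfe2l1, Nqo1, Hmox2, Blvra, Blvrb, Gclc, Gclm, Acsl4, Aifm2, Selenop, Maff, Mafk, Cybb and Nos3 were added for their roles, also with the values known. B cell, stromal and platelet markers were listed as well, and 7 of 8 B cell markers were matched.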

Additional observations from a re-analysis of the deposited data

How the results depend on the processing

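The count of called members was 0 in edgeR and in 13 of the 14 alternatives, and 1, Hmox1, under DESeq2's Wald test. The count of called pathway genes was 0 in edgeR and 7 under the Wald test, which is 8.05% beside 2.08% of all genes. With no filter on low counts it was 3 (Msrb1, Alox5 and Alox5ap), which is 3.37% beside 0.362%. With a library left out it was between 0 and 1. The 1 was Alox5 without male replicate 3, which is 1.14% beside 0.482%. The count was 0 under DESeq2's size factors, total counts alone, the stricter filter, without genes over 1% of a library and without robust estimation. Over all genes, 8 were called in edgeR, 359 by the Wald test, 98 with no filter, 14 with total counts alone, 96 without male replicate 3 and between 5 and 12 without any other library. The cause of these differences was not tested.

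Female and male libraries share replicate numbers. The labels do not say whether these numbers mark a shared batch, so they were used only in the replicate block. The correlations of the deviations from the group means were 0.194, 0.040 and 0.298 for numbers 1, 2 and 3. Those of unlike numbers lay between -0.274 and 0.131. Whether the numbers mark a batch was not tested. Male replicate 2 correlated best with female replicate 1 (0.131), and each other library with its own number. With the replicate block, 428 genes were called, or 2.20% of all genes tested, among them 0 members. It called 7 pathway genes (Gsr, Mgst2, Msra, Msrb1, Nfe2, Alox5 and Alox5ap), or 7.95% of those tested. Of the cell markers it called Cdh5, Kdr, Tek, Eng, Egfl7, Mrc1 and Lepr, whose means were lower in males. It also called S100a8, S100a9, Camp, Retnlg and Mmp8, whose means were higher in males.

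The 8 alternatives that kept all libraries turned the sign of no member. With 1 library left out, the log2 fold change ran from -0.04 to 0.20 for Gpx1, from -0.27 to 0.05 for Gpx3, from -0.14 to 0.17 for Gpx4 and from -0.16 to 0.15 for Prdx2. The sign also turned for Gclc (-0.20 to 0.08), Gclm (-0.15 to 0.02), Hmox2 (-0.23 to 0.02), Aifm2 (-0.22 to 0.03) and Prdx6 (-0.02 to 0.13), none of them called in any setting. The 7 summed marker levels kept their direction without their most abundant gene, though that of endothelial cells then overlapped between the sexes. With 3 libraries a sex, the 95% intervals of the members other than Hmox1 still allow differences of up to 0.613 or 1.41 times.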
